A study of Mus musculus with 45 samples.

Results

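The Zfp900 series genes are mouse zinc finger genes with numbered symbols from Zfp900 to Zfp999. They were taken as every row of the deposited expression table whose symbol holds Zfp, a 9 and exactly 2 further digits, which gave 61 of 26214 genes. The series was chosen because members were lower after H3.3K36M in both stages in earlier analyses of these data. The difference between K36M and control was therefore used in the choice, and it is described here with no test. The change from oocyte to embryo was not used in the choice and was tested.

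Most genes of this kind encode KRAB zinc finger proteins, in which an array of C2H2 zinc fingers reads DNA and an N-terminal KRAB domain binds the scaffold protein TRIM28. TRIM28 brings in the methyltransferase SETDB1, which deposits H3K9me3, and many KRAB zinc finger proteins silence transposable elements in this way. The genes multiply by tandem duplication, so that many lie side by side in clusters of close copies.

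RNA was sequenced from 3 control and 3 K36M libraries of fully grown oocytes (FGOs) and from late two-cell embryos, 1 embryo to a library, that came from such oocytes. Control females carried H3f3b K36M-flox/+, and K36M females carried H3f3b K36M-flox/+ together with Gdf9-Cre, so the flox allele was present in both groups. Cre under the oocyte-specific Gdf9 promoter switched on an HA-tagged H3.3K36M histone at the H3f3b locus, and this histone lowers H3K36me2 in oocytes. The study asked what loss of this mark does to the oocyte and to the embryo after it. All females were of a C57BL/6 and 129 mixed background. FGOs came from ovaries of females 3 to 4 weeks old, with 5 FGOs in each library. Embryos came from superovulated females by fertilization in vitro, were labelled hybrid C57BL/6 / 129 X JF-1, and were harvested 31 to 32 h after fertilization. A K36M oocyte can pass on either H3f3b allele, so the zygotic genotype of each K36M oocyte-derived embryo was not known. Of 8 control embryos, replicate 4 was set aside by the study for a technical problem and was left out here, which left 7 control and 8 K36M oocyte-derived embryos. Nothing in the labels says whether the FGO pools or the embryos of a group came from different females, so p-values measure the spread between these libraries, which may be technical in part.

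Expression was deposited as TPM, which scales reads by gene length and to the same sum in every library. A higher TPM of a member and a loss of other RNA from the same library cannot be told apart on this scale. TPM keeps no read depth. The number of genes with a TPM above 0 was 17362 to 18559 in the control FGO libraries, 16707 to 18014 in K36M FGOs, 12115 to 17329 in control embryos and 10894 to 14879 in K36M oocyte-derived embryos. The 7 oocyte marker genes summed to between 15698 and 15814 TPM in control FGOs and between 13194 and 14538 TPM in K36M FGOs, against 612.5 to 1915 TPM in control embryos and 623.8 to 1779 TPM in K36M oocyte-derived embryos. The 7 markers of embryonic genome activation summed to at most 73.9 TPM in FGOs and to at least 214.6 TPM in embryos, so the stage markers matched the labelled stages. The 8 granulosa and cumulus genes summed to 49 to 70.9 TPM in FGOs and to 2.65 to 150.6 TPM in embryos, the 6 stroma and theca genes to at most 50.4 TPM and the 4 blood genes to at most 29.9 TPM in any library. No 2 libraries held identical values.

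The 61 members lay on 13 chromosomes in the GRCm38.p6 assembly, and 41 of them lay in 6 clusters in which neighbouring gene starts were within 1000 kb of each other. The largest cluster held 13 members on chr4:145510759-147849126. Another cluster held 10 members on chr17:21565816-22867309 and a further one 9 members on chr2:175372034-178078425. Smaller clusters held 4 members on chr7:42579397-43192109, 3 on chr8:69209018-69749962 and 2 on chr13:62453016-62579321, and 20 members stood alone. No member fell on the table's upper number limit, because no symbol above Zfp999 was present, and the nearest lower symbol was Zfp882. Zfp882 had a mean of 0.175 TPM in control FGOs and 13.9 TPM in control embryos, while Zfp930, the lowest-numbered member, had 34 and 12.6 TPM.

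Start regions were read for 54 members from RefSeq tables of the GRCm38.p6 build, which give 250 bases before and 50 bases after each start. Between members on different chromosomes, 2 such regions were alike at a median of 51% of aligned positions over 1240 pairs. In the chromosome 4 cluster, 7 members (Zfp980, Zfp987, Zfp981, Zfp988, Zfp985, Zfp979 and Zfp984) shared 62.1% to 89.8% of positions, with a median of 75.4%. These sequences are shown because the cluster held 8 of the 14 members that rose from oocyte to embryo in controls, and 3 of the 9 in K36M. The windows below are the 100 bases from the longest stretch common to the 7, written 5′ to 3′ on the strand of the gene with that stretch in capitals, and they begin between 114 and 164 bases before the start. Zfp984 is not printed because its window lies in an exon of predicted transcripts. The positions are chr4:145670556-145670655 (plus strand) for Zfp980, chr4:146097161-146097260 (plus) for Zfp987, chr4:146514756-146514855 (plus, inside the spans of Zfp981 and Zfp993 but in no exon) for Zfp981, chr4:147305490-147305589 (plus, inside the span of Zfp978 but in no exon) for Zfp988, chr4:147553141-147553240 (plus) for Zfp985 and chr4:147642550-147642649 (minus) for Zfp979.
Zfp980: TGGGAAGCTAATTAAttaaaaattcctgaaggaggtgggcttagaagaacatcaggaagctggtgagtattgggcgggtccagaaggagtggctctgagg
Zfp987: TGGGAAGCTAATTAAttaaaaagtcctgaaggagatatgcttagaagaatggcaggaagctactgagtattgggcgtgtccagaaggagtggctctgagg
Zfp981: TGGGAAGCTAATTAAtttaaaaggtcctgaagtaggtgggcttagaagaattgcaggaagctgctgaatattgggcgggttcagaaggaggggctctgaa
Zfp988: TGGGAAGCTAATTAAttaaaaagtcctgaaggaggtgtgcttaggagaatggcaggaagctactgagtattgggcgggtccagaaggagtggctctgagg
Zfp985: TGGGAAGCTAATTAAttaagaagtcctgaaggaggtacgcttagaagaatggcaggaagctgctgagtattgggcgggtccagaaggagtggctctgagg
Zfp979: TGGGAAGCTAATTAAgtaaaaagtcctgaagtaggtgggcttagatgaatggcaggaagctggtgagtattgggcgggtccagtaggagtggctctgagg

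The stretch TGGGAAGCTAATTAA was searched on both strands of all 32851 start regions in the table and was found in 12 of them, or 0.0365%. All 12 lay on chromosome 4 within the cluster. Of these, 8 were members, the 7 named above and Zfp982, in which it stood on the opposite strand, and the other 4 were Gm13212, Zfp600, Rex2 and Zfp534. This is a match of letters and not a known binding site.

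The close copies also bear on the measurement. Of the 60 members with a GENCODE M21 transcript, 19 shared at most 5% of their 53-base windows (the read length) with the transcripts of any other gene and 9 shared over 80%. The median was 16.2%. In the chromosome 4 cluster the share ran from 1.34% (Zfp933) to 88.3% (Zfp987), with a median of 42%, and in the chromosome 2 cluster it ran from 22.1% to 100% with a median of 83.5%. In the chromosome 17 cluster it did not exceed 18%. Zfp966 and Zfp967 on chromosome 2 had identical TPM values in all 22 libraries and identical start regions, so they cannot be told apart. Values of members with a high share are uncertain, because reads that match several copies can be split, dropped or counted more than once.

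In control FGOs, 50 of 61 members reached a mean of 1 TPM, and 3 reached 100 TPM. In control embryos, 55 members reached 1 TPM and 7 reached 100 TPM. Members with a mean of at least 1 TPM made up 82% of the series in control FGOs and 90.2% in control embryos, against 77.2% and 87.9% of the 307 other numbered Zfp genes and 52.9% and 63.4% of all genes. In K36M they made up 77% in FGOs and 80.3% in embryos, now below the 78.2% and 84% of other Zfp genes and above the 51.9% and 62.3% of all genes. The members together summed to 1524 to 1627 TPM in control FGOs and to 2185 to 3191 TPM in control embryos, and to 1402 to 1440 and 1710 to 2492 TPM in the K36M groups. Every embryo lay above every FGO library of its genotype. In the chromosome 2 cluster, Zfp968, Zfp965, Zfp966, Zfp967 and Zfp973 had means below 0.5 TPM in all 4 groups, and together with Zfp976 of chromosome 7 they were the 6 members that passed the filter on low values in no comparison.

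**Figure D1:**
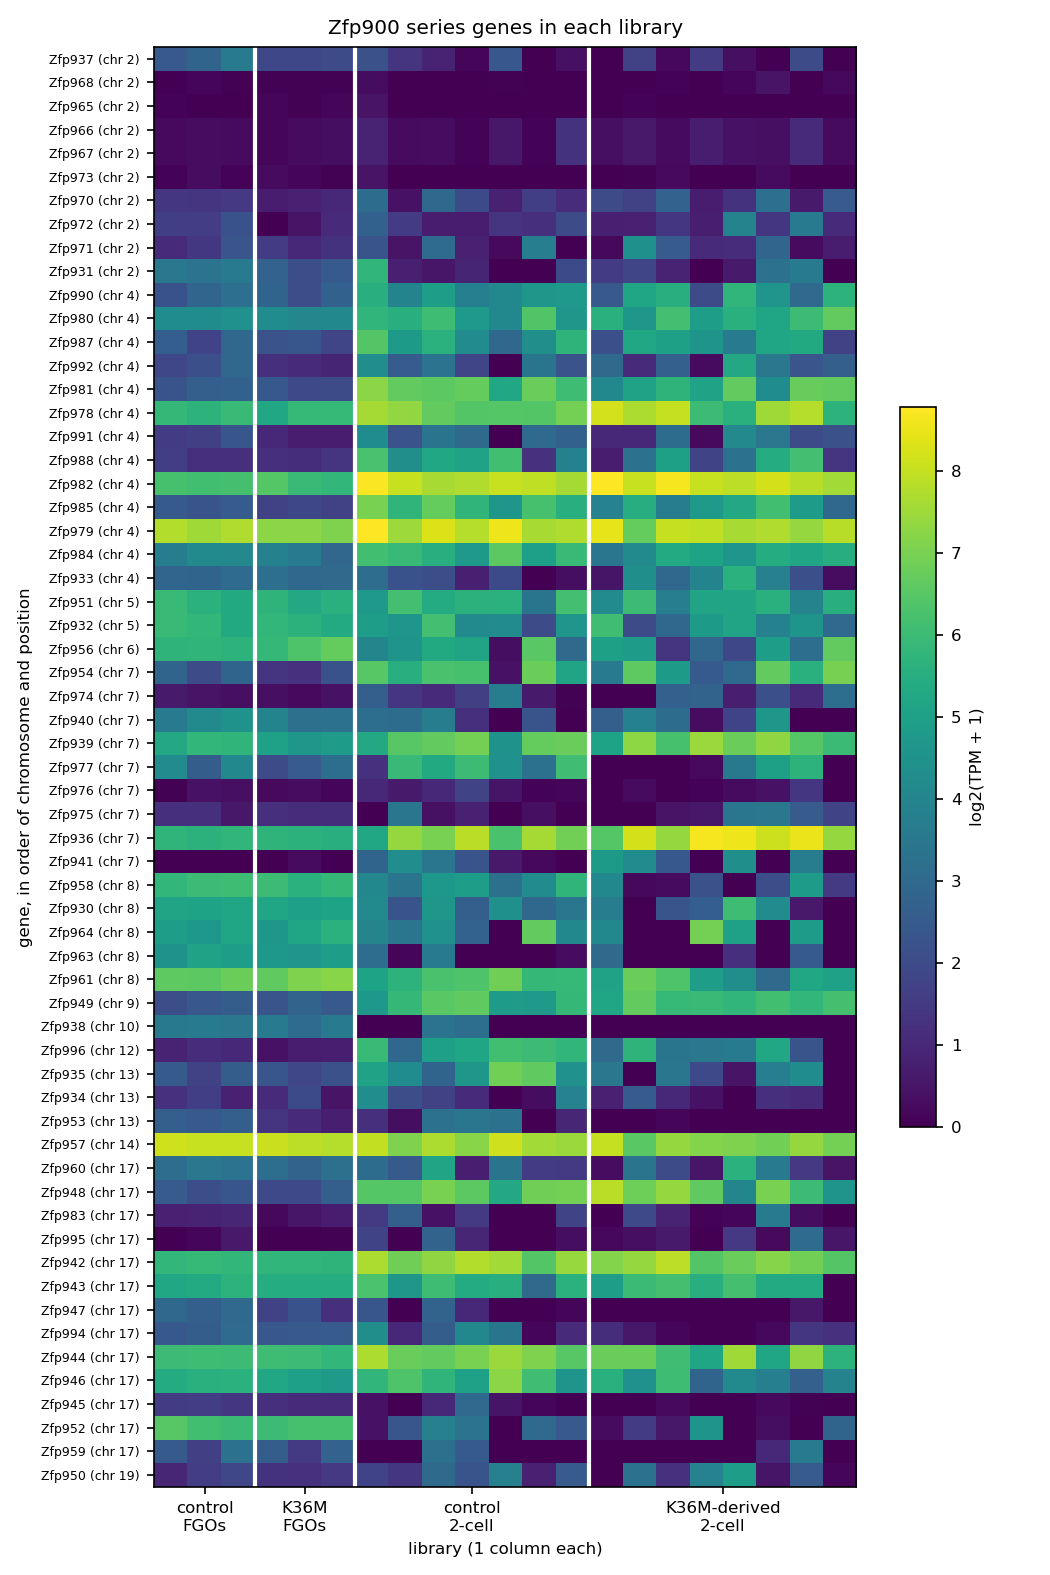
Levels of the 61 Zfp900 series genes, in order of chromosome and position (rows), in each of 21 libraries (columns, grouped by stage and genotype), coloured by log2(TPM + 1). Most chromosome 4 rows are brighter in the embryos, Zfp933 in controls being an exception, FGO libraries look alike within a group, and single embryos differ from each other.

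A few genes gave a large part of the RNA of the series. The 6 highest members made up 49.6% of the summed mean in control FGOs and 46.5% in control embryos. In control FGOs, Zfp957 on chromosome 14 was highest, with 285.3, 264.2 and 261.4 TPM in the 3 libraries, and the K36M libraries had 270.0, 239.7 and 222.4 TPM. Its values in control embryos ran from 134.7 to 284.0 TPM with a median of 186.8, and in K36M oocyte-derived embryos from 90.6 to 255.3 TPM with a median of 137.9. The stage difference of Zfp957 did not pass the test in controls (−0.49 ± 0.26 log2 units, SE, adjusted p = 0.18) or in K36M (−0.76 ± 0.31, adjusted p = 0.0875), and it did with array weights (adjusted p = 0.0045 and 0.0101). Reads of Zfp957 are almost its own, since 0.131% of its windows were shared.

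Zfp979 of the chromosome 4 cluster was second in control FGOs, with 216.0, 181.9 and 214.3 TPM. It was followed by Zfp961 with a mean of 101.4 ± 9.63 TPM (SD, n = 3), Zfp952 with 73.3 ± 13.8, Zfp982 with 71.4 ± 2.28 and Zfp944 with 64.7 ± 0.875. Zfp957, Zfp979 and Zfp961 were each separated from the next by more than the spread between libraries, while Zfp952 overlapped both Zfp982 and Zfp944, which did not overlap each other. In control embryos the order was Zfp979 (275.5 ± 96.9 TPM, SD, n = 7), Zfp982 (256.7 ± 79.3), Zfp957 (198.6 ± 54), Zfp942 (163.3 ± 47.8), Zfp936 (135.8 ± 67.3) and Zfp944 (135.4 ± 43.2). Each of these neighbours in the order overlapped within 1 SD.

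Spread differed between the stages. Over members with a mean of at least 1 TPM, the median SD of log2(TPM + 1) was 0.24 among control FGO libraries and 1.10 among control embryos, against 0.19 and 1.26 over all genes. In the K36M groups the medians were 0.23 and 1.35 for members. An FGO library pools 5 oocytes, while an embryo library holds 1 embryo and had more PCR cycles, and the embryo also carries a JF-1 genome from its father. The paper lists fewer total reads for each embryo library than for any FGO library. Stage and these differences cannot be told apart.

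The stage comparison asked which members rose or fell from FGO to late two-cell embryo, the period in which oocyte RNA is cleared and the embryonic genome is switched on. In controls, 14 of 55 members tested rose and 4 fell (limma on log2(TPM + 1), two-sided, Benjamini-Hochberg adjusted p under 0.05 over 16914 genes). Over all genes tested, 15.0% rose and 15.5% fell, against 25.5% and 7.27% of members and 19.6% and 14.0% of 271 other Zfp genes. The median difference was 0.30 log2 units for members, 0.19 for other Zfp genes and 0.08 for all genes. In K36M, in which neither the oocytes nor the embryos are shared with the control comparison, 9 of 51 members rose and 5 fell. There 9.86% of 16677 genes rose and 15.4% fell, against 17.6% and 9.80% of members and 10.7% and 15.7% of 261 other Zfp genes, and the medians were 0.40 for members, −0.41 for other Zfp genes and −0.16 for all genes. Counts and medians of the series are descriptions, and no test of the list was made.

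Of 51 members tested in both genotypes, 10 passed in both and in the same direction, 8 passed in controls alone, 4 passed in K36M alone and 29 in neither. The 6 that rose in both were 42.9% of those that rose in controls and 66.7% of those that rose in K36M. They were 11.8% of members, where 9.46% of 15048 genes rose in both, and the 4 that fell in both were 7.84% of members, where 11.7% of genes fell in both. The 2 stage differences correlated across the 51 members with Pearson's r of 0.90 and Spearman's rho of 0.89, against 0.92 and 0.91 over the 15048 genes. These are correlations across genes, which are not independent replicates, and the members did not stand above other genes in it. A difference in stage change between the genotypes was not tested.

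**Figure D2:**
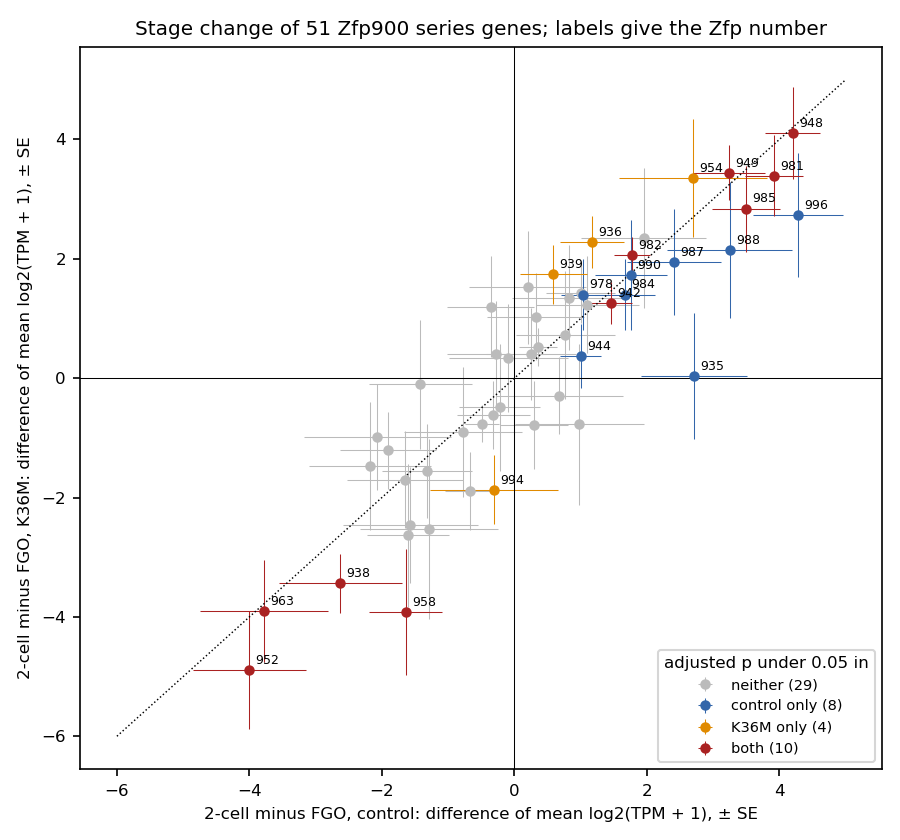
Stage change of 51 Zfp900 series genes, as the difference of mean log2(TPM + 1) between embryos and FGOs in controls (horizontal axis) and in K36M (vertical axis), with bars of 1 SE and colours for adjusted p under 0.05. The 10 genes past the threshold in both genotypes run from Zfp948 at 4.20 and 4.11 to Zfp952 at −4.00 and −4.89, with Zfp942 at 1.46 and 1.26. Some genes past it in 1 genotype lie farther from 0 than Zfp942, such as Zfp996 at 4.28 and 2.73.

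Zfp948, at the start of the chromosome 17 cluster, rose most among the members called in both genotypes. It had 4.8, 3.28 and 4.09 TPM in the control FGO libraries, and 38.6 to 129.1 TPM with a median of 94.7 in the 7 control embryos. In K36M it had 2.87, 2.87 and 5.34 TPM in FGOs and 15.3 to 234.3 TPM with a median of 106.3 in the 8 embryos. All 7 control and all 8 K36M oocyte-derived embryos lay above every FGO library of their genotype. The difference was 4.20 ± 0.42 log2 units (SE, adjusted p = 1.22e-05) in controls and 4.11 ± 0.77 (adjusted p = 0.00141) in K36M. No window of its transcripts was shared with another gene.

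Zfp949 on chromosome 9, another member with no shared window, rose likewise. Its control FGO libraries had 3.33, 4.16 and 5.01 TPM, and control embryos had 24.5 to 99 TPM with a median of 56. In K36M the FGO libraries had 3.9, 5.92 and 4.48 TPM and the embryos 35.9 to 102.0 TPM with a median of 59.2. The groups did not overlap in either genotype, and the difference was 3.24 ± 0.55 log2 units (adjusted p = 0.000711) in controls and 3.44 ± 0.46 (adjusted p = 9.16e-05) in K36M.

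The chromosome 4 cluster held more members that rose in controls than any other cluster. All 13 of its members were tested in both genotypes, 8 rose in controls, where 15.0% of all genes did, and 3 in K36M, where 9.86% did, none fell, and the median difference was 1.67 and 1.52 log2 units. Its summed level was 366.9 to 427.3 TPM in control FGOs and 803.0 to 1707 TPM in control embryos (at most 1056 TPM without control embryo replicate 1), and 293.6 to 335.4 and 728.6 to 1222 TPM in K36M. These members share windows with each other and with genes outside the series, such as Rex2, Zfp600 and Gm8935, so both single copies and the sum are uncertain.

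Within the cluster, Zfp981, Zfp985 and Zfp982 rose in both genotypes. Zfp981 had 3.87, 5.24 and 5.68 TPM in control FGOs and 37.2 to 153.3 TPM with a median of 100.2 in control embryos, a difference of 3.92 ± 0.44 log2 units (adjusted p = 3.15e-05). In K36M it went from 4.38, 2.86 and 3.14 TPM to 16.3 to 104.7 TPM with a median of 42, a difference of 3.39 ± 0.68 (adjusted p = 0.00238). The groups did not overlap in either genotype, and 37.8% of its windows were shared.

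Zfp985 had 4.63, 3.82 and 4.89 TPM in control FGOs and 24.1 to 129.3 TPM with a median of 52.3 in control embryos (3.50 ± 0.51 log2 units, adjusted p = 0.000234). In K36M the 3 FGO libraries had 2.31, 2.73 and 2.33 TPM and the embryos 6.88 to 68.7 TPM with a median of 26.4 (2.84 ± 0.72, adjusted p = 0.0103). The K36M call was lost with an adjusted p of up to 0.0803 in other settings, among them leaving out K36M FGO replicate 1 or 3, whereas the control call held in every setting tried.

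Zfp982 was already among the higher members in the oocyte, with 73.3, 68.9 and 71.9 TPM, and reached 192.8 to 424.4 TPM with a median of 242.0 in control embryos. The difference was 1.78 ± 0.27 log2 units (adjusted p = 0.000297). In K36M, FGOs had 88.1, 60 and 54.6 TPM and embryos 187.5 to 438.7 TPM with a median of 260.1 (2.06 ± 0.30, adjusted p = 0.000221). Every embryo lay above every FGO library, and 9.9% of its windows were shared.

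Of the 8 members whose start region held the common stretch, Zfp981, Zfp982, Zfp984, Zfp985, Zfp987 and Zfp988 rose in controls, and Zfp981, Zfp982 and Zfp985 rose in K36M. In K36M the differences were 1.40 ± 0.59 log2 units for Zfp984 (adjusted p = 0.1), 1.95 ± 0.89 for Zfp987 (adjusted p = 0.129) and 2.15 ± 1.14 for Zfp988 (adjusted p = 0.192), and with array weights all of them passed there (adjusted p = 0.0126, 0.00288 and 0.00715). Their control calls were lost when single control FGO libraries were left out, replicate 1 or 3 for Zfp984 (adjusted p of up to 0.0775), 1 or 2 for Zfp987 (0.114) and any of the 3 for Zfp988 (0.0753). The remaining pair did not pass the test in either genotype (Zfp980 was named after its values were seen), Zfp980 with a control difference of 1.00 ± 0.52 log2 units (adjusted p = 0.168, and 0.0524 in K36M) and Zfp979 with 0.36 ± 0.29 (adjusted p = 0.376, and 0.271 in K36M). With array weights Zfp980 passed in both genotypes (adjusted p = 0.00705 and 0.0018) and Zfp979 in K36M (adjusted p = 0.0415). Zfp979 and Zfp980 were the most alike pair of the 7 over the 300 bases, at 89.8%. Among chromosome 4 members without the stretch or without a listed start region, Zfp978 and Zfp990 rose in controls, and both calls were lost without any 1 of the control FGO libraries (adjusted p of up to 0.12 and 0.146 over all settings). Zfp933, likewise named, had a control difference of −1.42 ± 0.78 (adjusted p = 0.193, and 0.0281 with array weights). The number of CG dinucleotides in the start regions was 3 in Zfp980 and Zfp987, 4 in Zfp981 and Zfp988, 5 in Zfp979, 6 in Zfp985 and 9 in Zfp984, where the median over all start regions was 7 and Zfp982 held 16.

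**Figure D3:**
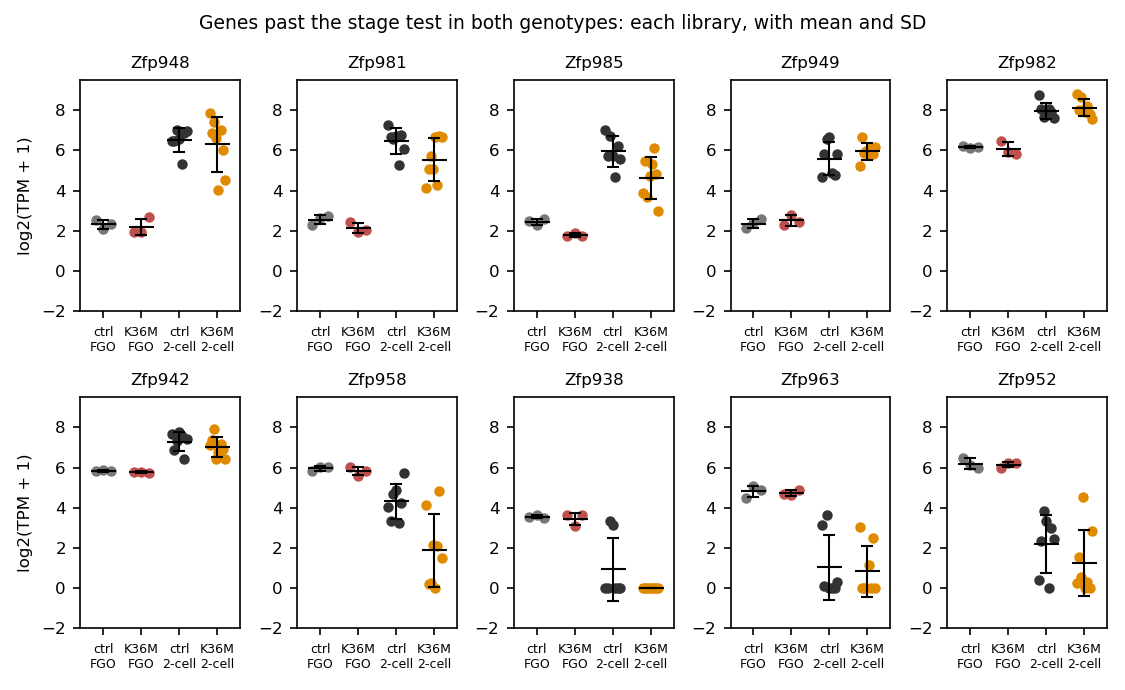
The 10 members past the stage test in both genotypes, as log2(TPM + 1) in every library, with the group mean and SD as black bars (3 libraries in each FGO group, 7 control and 8 K36M oocyte-derived embryos). The 6 genes from Zfp948 to Zfp942 have every embryo above every FGO library of its genotype, and the 4 genes from Zfp958 to Zfp952 have every embryo below.

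In the chromosome 17 cluster, 3 of 10 members tested rose in controls, where 15.0% of all genes did. In K36M 2 of 7 rose and 1 fell, where 9.86% and 15.4% of all genes did. Zfp942 had 55.5, 57.8 and 55 TPM in control FGOs and 84.7 to 217.7 TPM with a median of 170.7 in control embryos (1.46 ± 0.32 log2 units, adjusted p = 0.00382). In K36M it had 54.5, 53.9 and 51.4 TPM in FGOs and 84.7 to 240.4 TPM with a median of 130.3 in embryos (1.26 ± 0.36, adjusted p = 0.0185). The groups did not overlap. The K36M call was lost when K36M FGO replicate 1, 2 or 3 was left out, with an adjusted p of up to 0.0777.

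Zfp943, named with Zfp942 after its values were seen, lies head to head with it on the other strand, with 55 bases between the annotated genes. The bases between them are shown because both genes start from this gap and 1 of them passed the stage test while the other did not. They are given on the plus strand at chr17:21962504-21962558, with the palindrome CACGTG in capitals.
Zfp942 and Zfp943 gap: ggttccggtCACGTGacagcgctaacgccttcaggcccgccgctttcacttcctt
The letters CACGTG were found in 2349 of the 32851 start regions, or 7.15%. Zfp943 had 37.4, 40.5 and 50.4 TPM in control FGOs and 7.21 to 78.2 TPM with a median of 43.9 in control embryos (−0.22 ± 0.61 log2 units, adjusted p = 0.803). In K36M the difference was −0.49 ± 1.06 (adjusted p = 0.757), with K36M FGOs at 42.5, 41.8 and 42 TPM and embryos from 0 to 72.8 TPM. The groups overlapped, and the difference between the 2 genes was not tested.

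The members that fell in both genotypes were Zfp952, Zfp963, Zfp938 and Zfp958, which lie outside the 3 large clusters. Zfp952 on chromosome 17 had 88.9, 68.4 and 62.7 TPM in control FGOs and 0 to 13.1 TPM with a median of 4.53 in control embryos (−4.00 ± 0.85 log2 units, adjusted p = 0.00338). In K36M it had 63.1, 73.6 and 73.1 TPM in FGOs and 0 to 22.1 TPM with a median of 0.36 in embryos (−4.89 ± 0.99, adjusted p = 0.00256). Every embryo lay below every FGO library, and 1.88% of its windows were shared.

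Zfp963 in the chromosome 8 cluster had 21.6, 32.4 and 28.7 TPM in control FGOs and was listed at 0 in 3 of 7 control embryos, with the highest embryo at 11.6 TPM (−3.78 ± 0.96 log2 units, adjusted p = 0.0095). In K36M it had 24.6, 23.5 and 28.9 TPM in FGOs, was listed at 0 in 5 of 8 embryos and reached 7.24 TPM in the highest (−3.90 ± 0.85, adjusted p = 0.00397). The control call was lost without control FGO replicate 2 (adjusted p of up to 0.131 over all settings), and 39.2% of its windows were shared. Its cluster neighbours Zfp930 and Zfp964, the latter named after its values were seen, had differences of −1.61 ± 0.62 (adjusted p = 0.0649) and −1.29 ± 1.04 (adjusted p = 0.377) in controls, and with array weights both passed there (adjusted p = 0.00137 and 0.0483).

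Zfp938 on chromosome 10 had 10.8, 11.5 and 10.1 TPM in control FGOs and was listed at 0 in 5 of 7 control embryos, with 9.07 and 7.95 TPM in control embryo replicates 3 and 5. In K36M it had 11.3, 7.44 and 11.3 TPM in FGOs and was listed at 0 in all 8 embryos, so no fold is given (adjusted p = 0.00016). In controls the adjusted p was 0.0467 and the call was lost in 11 of 18 other settings, 5 of which left out a single embryo and 3 a single FGO library, with an adjusted p of up to 0.141. Whether a 0 in a single embryo is absence or a missed molecule was not tested.

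Zfp958 on chromosome 8 had 54.9, 64.2 and 64.9 TPM in control FGOs and 8.36 to 52.9 TPM with a median of 17.8 in control embryos (−1.64 ± 0.55 log2 units, adjusted p = 0.038). In K36M it had 63.5, 47.3 and 56.7 TPM in FGOs and 0 to 27.7 TPM with a median of 2.54 in embryos (−3.92 ± 1.06, adjusted p = 0.0142). All embryos lay below the FGO libraries. Both calls were lost when any 1 FGO library of the genotype was left out, with an adjusted p of up to 0.138 in controls and 0.1 in K36M. The control call was also lost without control embryo replicate 2 and with control embryo replicate 4 added.

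Members that passed in 1 genotype only were Zfp935, Zfp944, Zfp978, Zfp984, Zfp987, Zfp988, Zfp990 and Zfp996, which rose in controls, Zfp936, Zfp939 and Zfp954, which rose in K36M, and Zfp994, which fell in K36M. Leaving out any 1 FGO library of the genotype lost the calls of Zfp935 (adjusted p of up to 0.109 over all settings), Zfp939 (0.238), Zfp954 (0.103) and Zfp994 (0.342). Zfp944 had 63.9, 65.6 and 64.5 TPM in control FGOs and 89.6 to 209.2 TPM in control embryos (1.00 ± 0.31 log2 units, adjusted p = 0.0258). In K36M, Zfp944 had 64.9, 64.1 and 55.5 TPM in FGOs and 35.6 to 185.0 TPM in embryos (0.37 ± 0.53, adjusted p = 0.661), so that 3 of 8 embryos lay below the FGO libraries. Zfp936 of the chromosome 7 cluster had 53, 48.5 and 54.5 TPM in control FGOs and 37.5 to 233.1 TPM in control embryos (1.17 ± 0.48, adjusted p = 0.0834), and 51.6, 49.3 and 44.7 TPM against 88 to 401.9 TPM in K36M (2.28 ± 0.43, adjusted p = 0.0015). In array-weighted fits, which let embryos vary more than FGO pools, both stage differences of Zfp936 passed (adjusted p = 0.000492 and 1.34e-06), and Zfp944 passed in controls alone (adjusted p = 0.000768 and 0.44). The control call of Zfp944 was lost with median-of-ratios scaling, with no trend and without any 1 of the 3 control FGO libraries (adjusted p of up to 0.0963 over all settings).

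How many members were called moved with the FGO libraries and the weights. Without 1 control FGO library, 7 or 8 members rose and 1 or 2 fell in controls, and without 1 K36M FGO library, 5 or 6 rose and 3 fell in K36M. With array weights, 19 rose and 15 fell in controls, and 19 rose and 11 fell in K36M. Shares of all genes were not counted in these settings, so these counts cannot be read as particular to the series. Among the 19 members with at most 5% of windows shared, 2 rose and 3 fell in controls, where 15.0% and 15.5% of all genes did. Among 17 tested in K36M, 3 rose and 3 fell, where 9.86% and 15.4% did. In controls the risers in this subset were no larger a share than over all genes.

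Silencing factors were read from a list of 26 genes in the table, all of which passed the filter. It holds Trim28, Setdb1 and other chromatin partners of KRAB proteins, DNA methylation factors, and the KRAB zinc finger genes Zfp57, Zfp445 and Zfp809. In controls 5 rose (19.2%) and 7 fell (26.9%), where 15.0% and 15.5% of all genes did, and in K36M 4 rose (15.4%) and 6 fell (23.1%), where 9.86% and 15.4% did. Trim28 itself had 195.5, 186.5 and 217.0 TPM in control FGOs and 142.7 to 403.2 TPM with a median of 331.4 in control embryos (0.54 ± 0.31 log2 units, adjusted p = 0.209), and a difference of 0.70 ± 0.26 in K36M (adjusted p = 0.0604). Setdb1, which makes H3K9me3 on its recruitment by TRIM28, had 215.4, 234.1 and 219.2 TPM in control FGOs and 39.2 to 110.8 TPM in control embryos (−1.72 ± 0.36, adjusted p = 0.00291). In K36M the difference of Setdb1 was −1.76 ± 0.60 (adjusted p = 0.0444), and this call was lost without any 1 of the K36M FGO libraries or of K36M oocyte-derived embryo replicates 4 to 8, with an adjusted p of up to 0.224 over all settings. Those that rose in both genotypes were Cbx3 (an HP1 protein; 3.42 ± 0.52 log2 units in controls and 3.54 ± 0.58 in K36M), Hdac1 (3.38 ± 0.40 and 4.18 ± 0.30), Mta2 (5.69 ± 0.32 and 5.43 ± 0.42) and Gatad2a (0.91 ± 0.22 and 0.82 ± 0.21), the last 3 being subunits of the NuRD deacetylase complex. Besides Setdb1, those that fell in both were Mphosph8 of the HUSH silencing complex (−1.30 ± 0.26 and −1.18 ± 0.34), Uhrf1 (−3.39 ± 0.41 and −3.65 ± 0.32) and Dnmt1 (−4.04 ± 0.26 and −3.76 ± 0.21), which maintain DNA methylation, Trim24, a relative of TRIM28 (−1.39 ± 0.27 and −1.48 ± 0.28), and Zfp57, a KRAB zinc finger protein that guards imprints (−2.08 ± 0.16 and −2.28 ± 0.26). The K36M calls of Gatad2a and Mphosph8 were lost without any 1 of the K36M FGO libraries (adjusted p of up to 0.126 and 0.122 over all settings), and the control call of Gatad2a without control FGO replicate 3 (up to 0.071). The members of the list that moved include DNA methylation factors and general deacetylase subunits.

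The genotype comparison is given as a description, because it was used to choose the series. In FGOs, 44 of 50 members that passed the filter had a lower mean in K36M, where 47.9% of 13775 genes did. The median difference (K36M minus control, mean log2(TPM + 1)) was −0.16 for members, 0.06 for 238 other Zfp genes and 0.01 for all genes. Of the 44, 23 were lower by less than 0.25 log2 units, and 15 by at least 0.5, where 8.50% of genes were. By cluster, 12 of 13 members were lower on chromosome 4 (median −0.31), 4 of 4 on chromosome 2 (−0.81), 8 of 8 on chromosome 17 (−0.19) and 14 of 17 members that stood alone (−0.14). The 3 K36M libraries summed to at most 1440 TPM over the members and the 3 control libraries to at least 1524 TPM. In the K36M FGOs the oocyte markers also summed to less than in controls, as given above. Its part in the result was not tested.

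In 14 members (28.0%) the 3 K36M FGO libraries lay below all 3 controls, where 8.17% of genes did, and in 1, Zfp956, they lay above, where 7.46% did. Of the 26 silencing factors, 7 (26.9%) lay below and 0 above. Of other Zfp genes, 8.82% lay below and 7.14% above. The 14 members were Zfp937, Zfp939 and Zfp953, which stand alone, Zfp970, Zfp972 and Zfp931 of chromosome 2, Zfp992, Zfp991, Zfp985 and Zfp979 of chromosome 4, and Zfp942, Zfp947, Zfp946 and Zfp945 of chromosome 17. Their differences ran from −0.07 to −1.56 log2 units. Zfp953 on chromosome 13 had 5.29, 4.51 and 5.38 TPM in controls and 1.5, 1.1 and 0.648 TPM in K36M (−1.56 ± 0.32 log2 units, SE). Zfp972 had 2.13, 2 and 3.65 against 0, 0.374 and 1.1 TPM (−1.31 ± 0.42).

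Zfp992 had 2.66, 3.38 and 6.91 TPM in control and 1.33, 1.13 and 0.894 TPM in K36M FGOs (−1.25 ± 0.38), and 42% of its windows were shared. Zfp947 had 6.77, 5.28 and 6.93 against 2.24, 3.65 and 1.33 TPM (−1.15 ± 0.33), Zfp991 had 1.88, 2.16 and 4.07 against 0.949, 0.609 and 0.634 TPM (−1.06 ± 0.37), and Zfp931 had 10.4, 9.08 and 11.5 against 5.79, 3.29 and 4.66 TPM (−1.04 ± 0.26). Zfp979 had the highest level of the 14, with 216.0, 181.9 and 214.3 TPM in control and 150.7, 150.1 and 134.4 TPM in K36M FGOs (−0.49 ± 0.10). Zfp939 on chromosome 7, named after its values were seen, differed by −0.77 ± 0.18 between means of 48.7 and 27.9 TPM. Zfp956 on chromosome 6, named after its values were seen, had 51.2, 52.7 and 49.8 TPM in control and 56.5, 81.9 and 102.9 TPM in K36M FGOs (0.60 ± 0.19).

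**Figure D4:**
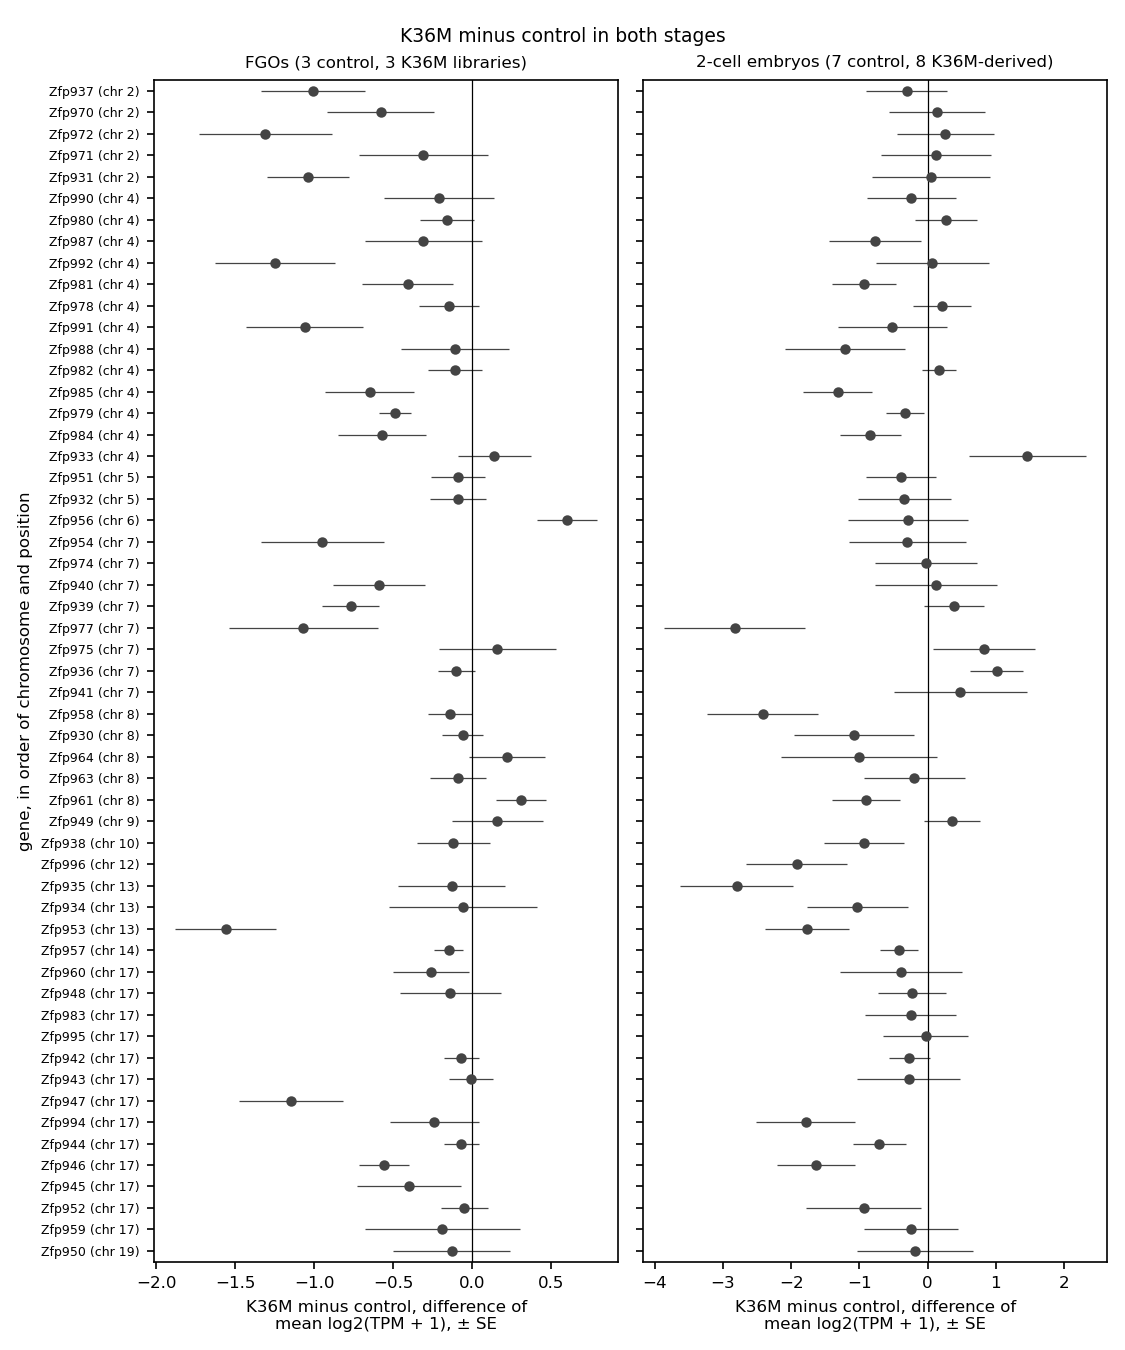
Difference of mean log2(TPM + 1) between K36M and control for the members that passed the filter, with bars of 1 SE, in FGOs (left, 50 members) and in embryos (right, 53 members), on horizontal axes of different range. Of the points, 44 lie left of 0 in FGOs, close together, and 38 lie left of 0 in embryos, with wider bars.

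In embryos, 38 of 53 members had a lower mean in K36M oocyte-derived embryos, where 63.8% of 17362 genes did. The median difference was −0.30 log2 units for members, −0.34 for 275 other Zfp genes and −0.26 for all genes, so the members lay near the shift of the table as a whole. With quantile normalization, 30 of 53 members were lower and their median was −0.12. No member separated the 7 control from the 8 K36M oocyte-derived embryos, where 0.0922% of genes were lower and 0.0230% higher without overlap. K36M oocyte-derived embryos had 40 to 54 members above 0 and control embryos 45 to 58, and fewer genes of the whole table were above 0, as given above. Whether this lower detection bears on the difference was not tested. All 8 members tested of the chromosome 17 cluster, 8 of 13 on chromosome 4 and none of 4 on chromosome 2 were lower.

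In both stages, 31 of 48 members that passed both filters were lower in K36M, where 30.4% of 12735 genes were. The series was chosen with such differences known, so this share is not an independent result. Lower by at least 0.5 log2 units in both stages were 6 members, or 12.5%, where 3.13% of genes were. They were Zfp953, Zfp977, Zfp991, Zfp985, Zfp984 and Zfp946.

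Zfp953 was listed at 0 in 7 of 8 K36M oocyte-derived embryos and at 0.104 TPM in the other, while control embryos ran from 0 to 9.93 TPM with a median of 1.29 (−1.77 ± 0.62 log2 units). Zfp977 of the chromosome 7 cluster had 17.9, 5.05 and 16.3 TPM in control and 3.13, 4.7 and 8.02 TPM in K36M FGOs (−1.07 ± 0.47). In embryos it ran from 1.38 to 67.8 TPM with a median of 39.7 in controls, and it was listed at 0 in 4 of 8 K36M oocyte-derived embryos and reached 50.3 TPM in the highest (−2.83 ± 1.03). Both groups overlapped in both stages for Zfp977, and in embryos for Zfp953.

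Zfp946 of the chromosome 17 cluster had 41.7, 46.2 and 47.4 TPM in control and 36.8, 29.8 and 25.2 TPM in K36M FGOs (−0.56 ± 0.16). In embryos it ran from 22.2 to 153.2 TPM with a median of 53.4 in controls and from 5.43 to 65.5 TPM with a median of 15.6 in K36M (−1.64 ± 0.57). Zfp946 was the highest of the 6 in FGOs and shared 1.46% of its windows.

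Zfp984 had 12.3, 17.5 and 16.4 TPM in control and 13.6, 11 and 6.42 TPM in K36M FGOs (−0.57 ± 0.28), and medians of 58.7 and 34.1 TPM in control and K36M oocyte-derived embryos (−0.84 ± 0.45). Zfp985 differed by −0.65 ± 0.28 in FGOs and −1.32 ± 0.51 in embryos, and Zfp991 by −1.06 ± 0.37 and −0.52 ± 0.80, from the values above. In embryos Zfp991 ran from 0 to 18.4 TPM in controls and from 0.16 to 16.5 TPM in K36M, and the groups overlapped over nearly their whole range. Of its windows, 81.3% were shared with other genes.

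**Figure D5:**
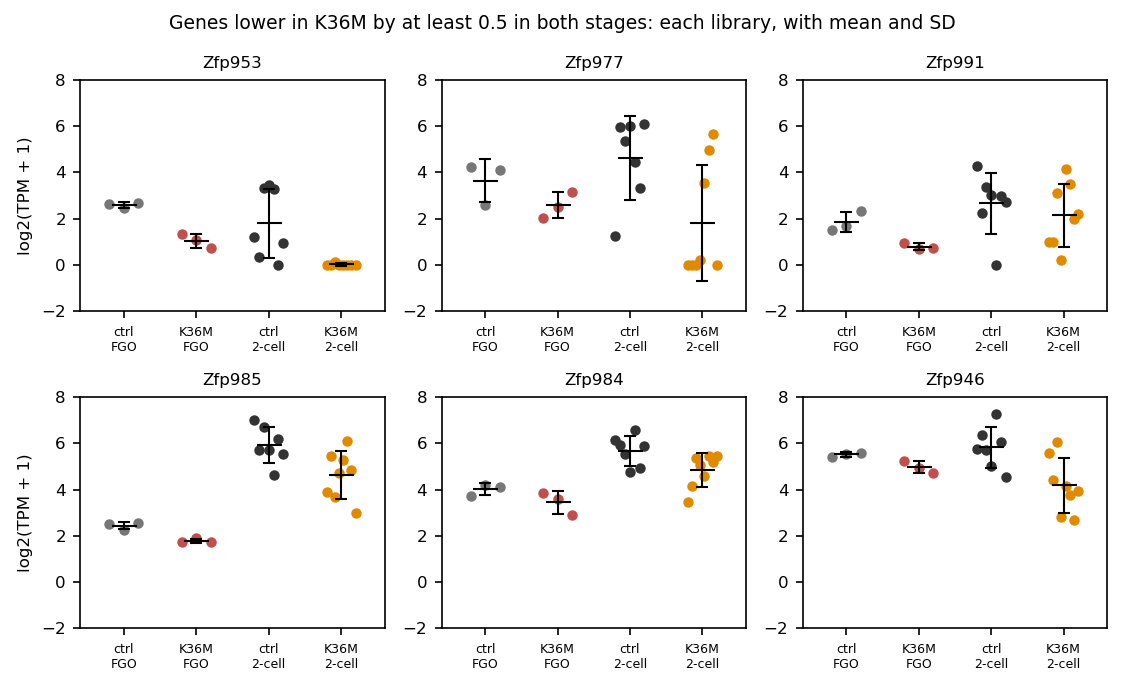
The 6 members lower in K36M by at least 0.5 log2 units in both stages, as log2(TPM + 1) in every library, with group mean and SD as black bars. In embryos the 2 groups overlap for each gene, and Zfp953 is at or near 0 in all 8 K36M oocyte-derived embryos.

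Of the 48 members, 3 were higher in K36M in both stages, and these were named after their values were seen, except Zfp949. Zfp933 differed by 0.14 ± 0.23 log2 units in FGOs and 1.46 ± 0.86 in embryos, Zfp975 by 0.16 ± 0.37 and 0.83 ± 0.75, and Zfp949 by 0.16 ± 0.29 and 0.36 ± 0.41. Zfp936 was higher in K36M oocyte-derived embryos, with a median of 285.3 TPM against 128.5 TPM in controls (1.01 ± 0.39 log2 units), while in FGOs it differed by −0.10 ± 0.12. The other most abundant members differed by less than 0.5 log2 units in FGOs. Zfp957 differed by −0.15 ± 0.09 in FGOs and −0.42 ± 0.28 in embryos, Zfp982 by −0.11 ± 0.17 and 0.17 ± 0.25, Zfp942 by −0.07 ± 0.11 and −0.27 ± 0.30, and Zfp944 by −0.07 ± 0.11 and −0.71 ± 0.39. Zfp961 differed by 0.31 ± 0.16 in FGOs and by −0.91 ± 0.50 in embryos. Whether the genotype difference itself differed between the stages was not tested.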

How the data were processed

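RNA-seq libraries were made with a SMART-Seq stranded kit. The authors trimmed the reads with Trim Galore!, mapped them to mm10 with HISAT2, removed ribosomal reads with BEDTools, counted genes with featureCounts and deposited TPM values per gene and library. The annotation, the strand setting and the treatment of reads with several matches are not given in the sources used here. All 22 columns were mapped to samples by their names, and 21 libraries were used.

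The deposited TPM values were put on a log2(TPM + 1) scale and tested by limma (version 3.58.1, under R 4.3.3, lmFit and then eBayes with trend) over genes with a mean of at least 1 TPM in the libraries fitted, one fit for each pair of groups, p-values being adjusted by Benjamini-Hochberg and called under 0.05. Fold changes on this scale understate those of low genes. TPM does not allow a count test and keeps no depth, while the paper lists total reads for each library. The planned test was run as designed. The fit was tested on simulated data. Cluster positions, start regions and exons came from RefSeq (GRCm38.p6), and start regions were aligned end to end with Biopython 1.88. Shared windows were counted over GENCODE M21 transcripts, on either strand.

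Members and lists were chosen with earlier results of these data known. Named with values were the 6 highest members in each control group, up to 6 per direction past the stage test in both genotypes, the 6 largest differences without overlap between genotypes, members lower by at least 0.5 log2 units in both stages, the nearest symbol outside the range, and corepressor genes. Alternatives were a pseudocount of 0.1, no filter, a mean of at least 5 TPM, quantile and median-of-ratios scaling, no trend, array weights, a replicate block, leaving out single libraries and adding control embryo 4. Leaving out embryos in the stage fits, and counting only members with at most 5% of windows shared, were added after seeing the data. The chromatin and methylation data were not used here.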

Additional observations from a re-analysis of the deposited data

Results flagged for a closer look

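Values of the named members, the summed TPM of all members and the number of members above 0 were searched for a single embryo far from the rest of its group. This covered 51 sets of embryo values, by Dixon's ratio of the gap beside the highest or lowest embryo to the range of the group. It passed Dixon's critical value in 5 sets, and by the level of that value chance gives about 1 in 20. Zfp982 was highest in control embryo replicate 1, at 424.4 TPM, and Zfp931 was also highest there, at 54.1 TPM, where the other 6 control embryos had 0 to 2.91 TPM. Zfp948 was lowest in control embryo replicate 6, at 38.6 TPM. In K36M oocyte-derived embryos, Zfp953 was at 0.104 TPM in replicate 3 and Zfp947 at 0.49 TPM in replicate 7, where all other embryos of the group were listed at 0. For these last genes any value above 0 would have stood apart, so the chance rate does not apply to them. No named member had every embryo or FGO library of one group moving one way and every one of the other group the opposite way.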

How the results depend on the processing

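No called stage change of a member changed direction in any setting, and 8 of 18 control calls and 5 of 14 K36M calls held in every setting. In controls 14 members rose and 4 fell. Fallen members numbered 7 with quantile normalization, 7 with median-of-ratios scaling and 15 with array weights, and 19 rose with array weights. In K36M 9 rose and 5 fell. These became 19 and 11 with array weights, and 8 fell with no filter. Leaving out 1 library gave 7 to 15 risers and 1 to 6 fallers in controls, and 5 to 11 and 3 to 6 in K36M, the lowest counts each time without an FGO library. Correlations of same-numbered deviations lay between −0.10 and 0.10. They gave no sign that replicate numbers pair the samples, but they cannot exclude it. With the replicate block, 2 members fell in controls, and 5 rose and 3 fell in K36M. Counting only members with at most 5% of windows shared left fewer members, 19 tested in controls and 17 in K36M. Of these, 2 and 3 rose, where 15.0% and 9.86% of all genes did, and 3 and 3 fell, where 15.5% and 15.4% did. In this setting 14 of 18 members were lower in K36M in FGOs, where 47.9% of genes were, and 14 of 18 in embryos, where 63.8% were. With a mean of at least 5 TPM, 26 of 30 members were lower in K36M FGOs and 14 of 25 in both stages. Leaving out 1 library gave 39 to 42 members lower in FGOs (median −0.24 to −0.13), 34 to 41 in embryos (−0.43 to −0.16) and 26 to 35 in both. Except for the count by shared windows, the share of all genes was not counted in these other settings. The causes of these shifts were not tested. TPM gives no depth, and embryos listed at 0 limit low members most.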
